A study of Mus musculus with 12 samples.

Results

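The 9 genes described here, P2ry12, P2ry13, Tmem119, Cx3cr1, Csf1r, Sall1, Siglech, Fcrls and Olfml3, are the transcripts most often used to recognise microglia in their homeostatic state. They were found by symbol among the 24062 genes of the count table, all 9 had counts in every one of the 12 libraries, and all 9 were among the 15440 genes that passed the filter on low counts. Each library held the cortex RNA of 1 mouse aged 9 months, and each genotype had 3 mice. WT mice carried neither mutation. Tia1+/- mice lacked 1 copy of Tia1, which encodes a stress granule RNA-binding protein, through a null allele. PS19 mice carried human P301S tau under the Prnp promoter with both Tia1 copies intact, and P301S Tia1+/- mice carried the transgene and 1 Tia1 copy. The transgenic line was of mixed B6;C3 origin and the null allele was on C57BL/6J before the crosses, and animals with end-stage motor signs had been left out. The comparisons ask how the tau transgene, the loss of 1 Tia1 copy, and both together relate to these genes.

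Microglia are the resident macrophages of the brain. They depend on signals through the CSF1 receptor, sense nucleotides and the neuronal chemokine fractalkine through surface receptors, and keep their identity through transforming growth factor beta and transcription factors such as SALL1 and PU.1. In injury and in neurodegeneration models, microglia are known to lower many of the genes studied here while they turn on a disease-associated set that includes Apoe, Itgax and Clec7a. In bulk cortex RNA, fewer microglia and less RNA of a gene per microglial cell cannot be told apart.

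The libraries were read with some limits that bear on every value below. Totals per library lay between 11978962 and 19146484 counts, so the deepest held 1.60 times the counts of the shallowest, and the 9 genes had between 76 and 2036 counts in a library. The groups follow the deposited titles, because the genotype entries of the libraries titled as Tia1+/- and as P301S Tia1+/- name each other's genotype. Mean Tia1 CPM (counts per 1 M on edgeR's TMM scale) was 82.0 for WT libraries, 68.0 for Tia1+/-, 73.5 for PS19 and 74.7 for P301S Tia1+/-, with SDs of 2.76 to 10.3 (n = 3), so its level did not separate the libraries labelled with 1 Tia1 copy from the others. Mapt, the mouse tau gene, was at 439 to 462 CPM in PS19, 336 to 357 in P301S Tia1+/-, 344 to 502 in Tia1+/- and 256 to 413 in WT. Prnp, whose promoter drives the transgene, was at 2018 to 2158 CPM in PS19, 1404 to 1535 in P301S Tia1+/-, 996 to 1922 in Tia1+/- and 1334 to 1879 in WT. Both were higher without overlap in PS19 than in WT and lower without overlap in P301S Tia1+/- than in PS19, the P301S Tia1+/- ranges lay inside those of WT, and edgeR called neither. Whether transgene reads count toward either gene is not given in the sources used here. The methods state male mice, but Xist, which is transcribed from the inactive X chromosome, had at least 3304 counts in each of the 6 libraries labelled with 1 Tia1 copy and at most 13 in the other 6, and Ddx3y on the Y chromosome had at most 2 counts in the former and at least 1605 in the latter. Sex as read from these genes and the Tia1 label therefore cannot be told apart in any comparison that crosses them. A list of 9 olfactory bulb genes summed to between 666 and 812 CPM in P301S Tia1+/- and to between 27.8 and 36.3 in PS19. In WT replicates 1, 2 and 3 the sum was 1060, 171 and 59.5 CPM, and in Tia1+/- it was 29.7 to 143. A list of 8 striatal genes reached 1767 CPM in Tia1+/- replicate 3 against 124 to 313 in the other 11 libraries.

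The members are spread over several chromosomes of GRCm38, namely P2ry12, P2ry13, Fcrls and Olfml3 on chromosome 3, Tmem119 on chromosome 5, Siglech on chromosome 7, Sall1 on chromosome 8 and Cx3cr1 on chromosome 9. P2ry13 (chromosome 3, 59207892 to 59210882, minus strand) and P2ry12 (59216272 to 59262871, minus strand) lie side by side inside Med12l, a gene of the opposite strand. RefSeq promoters on GRCm38.p6, each from 250 bases before to 50 after a start, were found for 7 of the 9 genes, with 9 promoters in all. The promoters of 2 pairs of genes are shown because these pairs had high correlations across the libraries, described below. Capitals mark the letters GAGGAAG, a core of the binding motif of PU.1, the lineage factor of myeloid cells, which was searched on both strands.
P2ry13, chr3:59210833-59211132, minus strand: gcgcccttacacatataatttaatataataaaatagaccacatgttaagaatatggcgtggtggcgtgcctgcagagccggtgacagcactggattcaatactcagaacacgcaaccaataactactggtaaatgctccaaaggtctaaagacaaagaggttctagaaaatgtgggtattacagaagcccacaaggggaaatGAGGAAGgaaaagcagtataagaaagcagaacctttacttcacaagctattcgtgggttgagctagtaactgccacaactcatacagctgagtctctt
Cx3cr1, chr9:120068247-120068546, minus strand: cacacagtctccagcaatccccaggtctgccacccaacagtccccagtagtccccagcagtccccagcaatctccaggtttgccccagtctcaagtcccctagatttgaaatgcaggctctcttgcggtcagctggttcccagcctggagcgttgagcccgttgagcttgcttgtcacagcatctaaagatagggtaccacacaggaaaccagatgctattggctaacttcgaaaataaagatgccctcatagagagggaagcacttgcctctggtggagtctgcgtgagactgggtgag
Fcrls, chr3:87263475-87263774, minus strand: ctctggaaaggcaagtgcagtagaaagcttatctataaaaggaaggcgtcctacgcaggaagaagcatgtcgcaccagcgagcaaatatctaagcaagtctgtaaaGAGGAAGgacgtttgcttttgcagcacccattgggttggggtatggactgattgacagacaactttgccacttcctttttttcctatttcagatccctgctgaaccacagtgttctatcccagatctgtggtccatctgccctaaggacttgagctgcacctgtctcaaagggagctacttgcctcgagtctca
Olfml3, chr3:103737952-103738251, minus strand: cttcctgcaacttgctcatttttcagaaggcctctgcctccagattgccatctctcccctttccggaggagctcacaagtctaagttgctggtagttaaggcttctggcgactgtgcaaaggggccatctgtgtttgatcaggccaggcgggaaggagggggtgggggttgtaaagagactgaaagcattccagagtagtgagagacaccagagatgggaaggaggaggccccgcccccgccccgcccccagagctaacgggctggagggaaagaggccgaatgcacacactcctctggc
P2ry13 held the 7 letters starting 48 bases before its start and Fcrls held them 144 bases before its start, both on the gene's own strand. These were the 2 of 9 member promoters with a match, beside 13.6% of the 32851 mouse promoters searched, so 1 promoter of each pair had the letters and the other did not. The letters TGCTGAC, part of the element that MAF factors bind, were in 0 of the 9 and in 4.67% of all promoters. No sequence is given for Tmem119 or Csf1r.

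In WT cortex, the members differed in level by length-corrected counts. P2ry12, the ADP receptor that steers microglial processes to sites of injury, had the highest value, 15.4 ± 0.565 CPM per kb of exon (SD, n = 3), followed by Csf1r, the receptor for CSF1 and IL-34, at 11.2 ± 1.24. Tmem119, a surface protein used to tell microglia from other macrophages, stood at 8.09 ± 1.45 CPM per kb and Cx3cr1, the fractalkine receptor, at 8.06 ± 0.727, which lay within each other's spread. Fcrls at 3.80 ± 1.37 CPM per kb, P2ry13 at 3.40 ± 0.779 and Siglech at 2.94 ± 0.00846 were lower and did not differ beyond their spread. Olfml3, a secreted matrix protein, was the lowest at 1.61 ± 0.0922 CPM per kb. This order rests on the exon lengths used, 6161 bases for Olfml3 and 5774 for Csf1r, and the annotation used for counting is not given. Without the length, Olfml3 had 9.94 CPM, Siglech 9.96, Fcrls 8.87 and P2ry13 8.61. Csf1r had 64.6 CPM and P2ry12 39.3. Sall1 had 5.46 ± 5.51 CPM per kb in WT, an SD as large as its mean, and its place in the order is not fixed by 3 libraries.

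**Figure D1:**
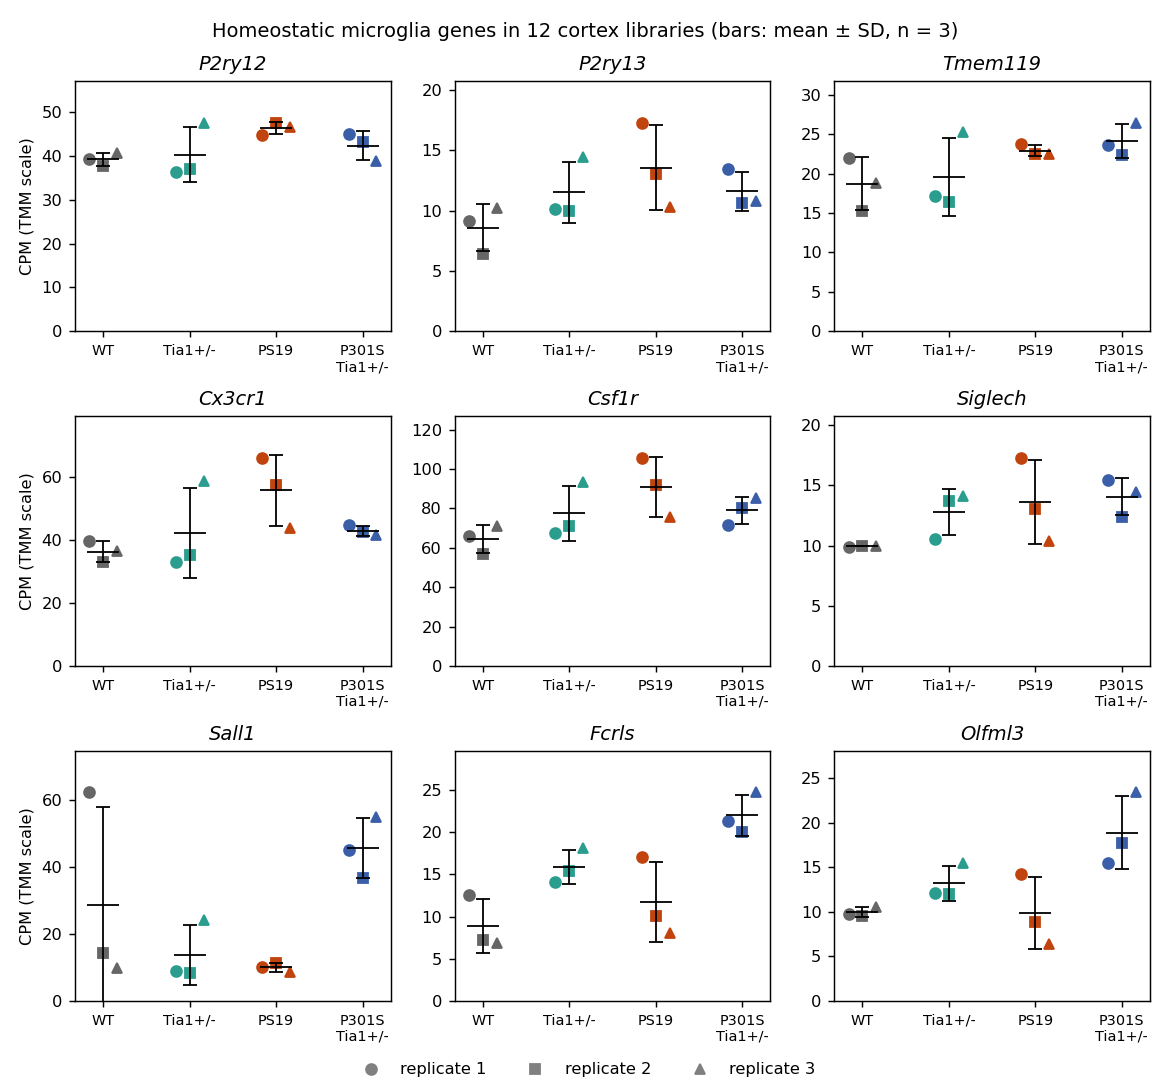
CPM on the TMM scale (y axes, each from 0) of the 9 homeostatic microglia genes in the 12 libraries, by genotype group (x axes); points are libraries, shaped by replicate number, and bars are the mean ± SD of 3. The 3 PS19 points sit above the 3 WT points for P2ry12, P2ry13, Tmem119, Cx3cr1, Csf1r and Siglech, and the 3 P301S Tia1+/- points sit above all PS19 points for Sall1, Fcrls and Olfml3.

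PS19 was compared with WT to ask what the tau transgene was accompanied by. The levels of 6 of the 9 genes lay higher in all 3 PS19 libraries than in all 3 WT libraries, namely the 4 receptors P2ry12, P2ry13, Cx3cr1 and Csf1r and the surface proteins Tmem119 and Siglech. Among all genes tested, 9.75% were higher without overlap and 11% were lower without overlap, and no member was lower in this way. The steps were small, with log2 fold changes of 0.24 to 0.65 for these 6 genes, and none passed the test. The edgeR quasi-likelihood test called 0 of 9 members after Benjamini-Hochberg adjustment, as it called 0 of the 15440 genes tested (0%). The 6 members with an unadjusted p under 0.05, against 16.3% of all genes, were P2ry12, P2ry13, Cx3cr1, Csf1r and Siglech, with positive log2 fold changes, and Sall1, with a negative one, and DESeq2's Wald test called 0 members as well. The median log2 fold change of the 9 was 0.41, with a median of −0.01 over all genes tested. An exact 2-sided permutation test of 1 gene cannot go below p = 0.10 with groups of 3.

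Csf1r, on chromosome 18 from 61100598 to 61132149 on the plus strand of GRCm38, had the smallest unadjusted p in this comparison. It stood at 65.8, 56.9 and 71.1 CPM in WT replicates 1, 2 and 3, and at 106, 92.1 and 75.4 CPM in PS19. The lowest PS19 library was above the highest WT library by less than the SD of 15.2 CPM within PS19. The log2 fold change was 0.50 (SE 0.154, edgeR adjusted p = 0.191). Exons of Csf1r overlap exons of Hmgxb3 on the other strand, which makes its counts uncertain if strand was not used. Cx3cr1 went from 39.5, 33.0 and 36.4 CPM in WT to 66.1, 57.4 and 43.8 CPM in PS19, with a log2 fold change of 0.62 (SE 0.209, edgeR adjusted p = 0.213). In both genes PS19 replicate 1 was the highest of the 12 libraries and PS19 replicate 3 was the lowest of its group, nearest to WT.

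The ADP receptors differed from each other in how evenly they were higher. P2ry12 was at 39.4, 37.8 and 40.7 CPM in the WT libraries and at 44.8, 47.6 and 46.6 CPM in PS19, with little spread in either group and a log2 fold change of 0.24 (SE 0.108, edgeR adjusted p = 0.304). P2ry13, a second ADP receptor, was at 9.12, 6.43 and 10.3 CPM in WT and at 17.3, 13.05 and 10.3 CPM in PS19, where replicate 3 lay just above the highest WT library. Its log2 fold change was 0.65 (SE 0.236, edgeR adjusted p = 0.229). Exons of P2ry12 overlap exons of Med12l, the Mediator subunit gene on the other strand, and the strand setting of the counting is not given in the sources used here. Med12l stood at 71.0 ± 2.52 CPM in WT and 70.0 ± 0.933 in PS19, with a log2 fold change of −0.02 (edgeR adjusted p = 0.894). In P301S Tia1+/- both genes had a log2 fold change of −0.13 against PS19, where Med12l was lower without overlap, at 62.0 to 66.6 CPM against 69.1 to 70.9 (edgeR adjusted p = 0.3).

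Tmem119 and Siglech completed the set without overlap. Tmem119 was at 22.0, 15.3 and 18.9 CPM in WT and at 23.8, 22.5 and 22.5 CPM in PS19. Siglech, a sialic-acid-binding receptor that signals through an adaptor shared with TREM2, was nearly constant in WT at 9.93, 9.98 and 9.96 CPM. In PS19 it was at 17.3, 13.05 and 10.4 CPM, with the same counts as P2ry13 in replicates 1 and 2 (333 and 163), so only replicate 1 and replicate 2 stood well apart from WT. The edgeR adjusted p was 0.424 for Tmem119 and 0.27 for Siglech.

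The other 3 members did not separate PS19 from WT. Fcrls, an Fc receptor-like scavenger protein found on mouse microglia, was at 12.6, 7.19 and 6.84 CPM in WT and at 17.0, 10.0 and 8.07 CPM in PS19, and the groups overlapped. Olfml3 was at 9.77, 9.47 and 10.6 CPM in WT and spread from 6.38 to 14.3 CPM in PS19, on both sides of WT. Sall1, the transcription factor that holds microglia in their resting identity and is also used by other cells of the brain, was at 62.1, 14.3 and 9.81 CPM in WT and at 10.1, 11.2 and 8.67 CPM in PS19. Its log2 fold change of −1.52 (SE 0.623, edgeR adjusted p = 0.27) rested on WT replicate 1, and without that library it was −0.26.

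PS19 replicate 1 weighed on the comparison. It was the highest PS19 library in every member but P2ry12 and Sall1, and its summed level of 30 other microglia-enriched genes was 1256 CPM, against 866 and 787 in the other PS19 libraries and 684 to 746 in WT. Without it, 6 members were higher than WT without overlap, beside 14.5% of all genes, Olfml3 was lower without overlap, beside 15.5% of all genes, and the median log2 fold change of the 9 was 0.27. The 9 olfactory bulb genes were all lower without overlap in PS19 than in WT, beside 11% of all genes, with a median log2 fold change of −6.01. From edgeR, 8 of them had an unadjusted p under 0.05, beside 16.3% of all genes. Oligodendrocyte markers, 8 genes, summed to between 2400 and 4013 CPM in PS19 and to between 1801 and 2721 in WT, and 8 neuronal genes summed to between 6680 and 8391 CPM in PS19 and to between 6571 and 8500 in WT. Their part in the members' levels was not tested.

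**Figure D2:**
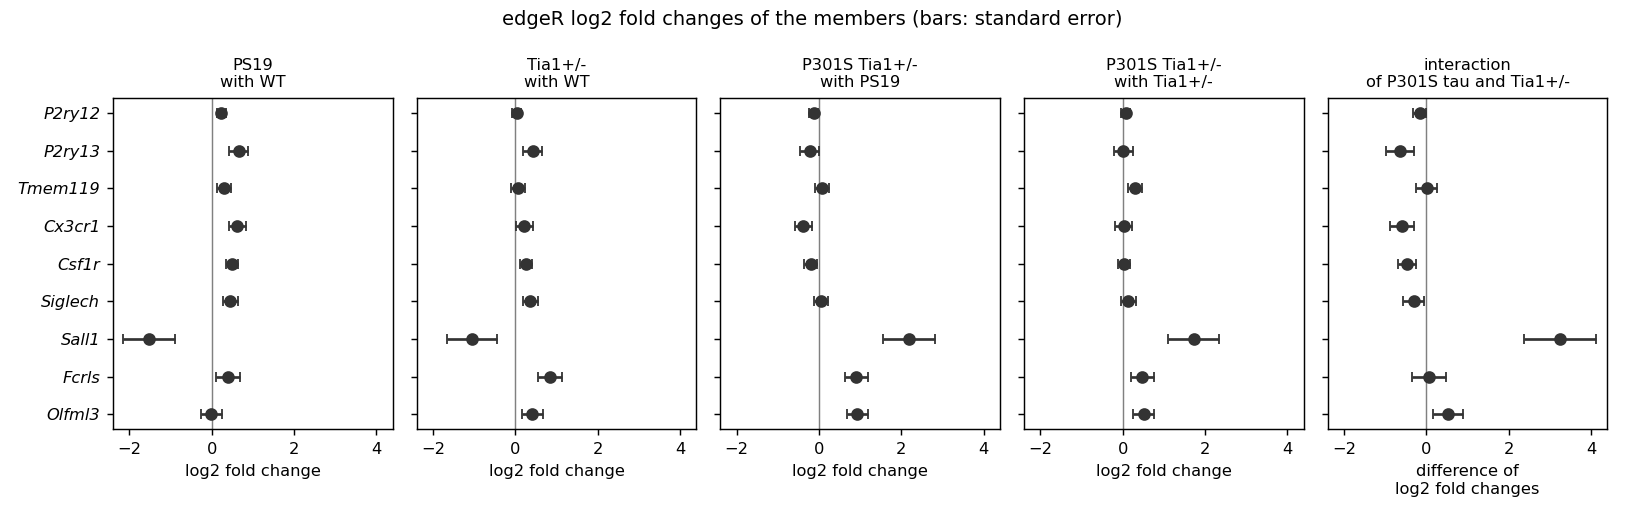
Log2 fold changes from edgeR with their standard errors (x axes) for the 9 genes (y axis) in 4 comparisons of genotype groups and in the interaction. The receptors sit at small positive values for PS19 with WT and near 0 or below for P301S Tia1+/- with PS19, where Sall1, Fcrls and Olfml3 sit at 2.19, 0.90 and 0.93.

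P301S Tia1+/- was compared with PS19 to ask how the loss of 1 Tia1 copy went along with these genes in the presence of P301S tau. The members split. Sall1, Fcrls and Olfml3 were higher in all 3 P301S Tia1+/- libraries than in every PS19 library, while the log2 fold changes of the other 6 lay between −0.38 and 0.07 and their groups overlapped. Of all genes tested, 20.2% were higher without overlap in this comparison and 18.2% were lower, so groups without overlap were common among genes at large. The median log2 fold change over the 9 members was 0.05, with 0.01 over all genes. edgeR called 0 members here, and 0.24% of all genes. An unadjusted p under 0.05 was given for 3 members, the same 3 genes, and for 19.3% of all genes. DESeq2's Wald test called these 3 among 821 genes, or 5.28% of those it gave an adjusted p.

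Olfml3 was at 14.3, 8.89 and 6.38 CPM in PS19 and at 15.5, 17.8 and 23.4 CPM in P301S Tia1+/-. The gap between the highest PS19 library and the lowest P301S Tia1+/- library was narrow, and PS19 replicate 1 was the library that closed it. The log2 fold change was 0.93 (SE 0.257, edgeR adjusted p = 0.119). Fcrls was at 17.0, 10.0 and 8.07 CPM in PS19 and at 21.3, 19.97 and 24.7 CPM in P301S Tia1+/-, a log2 fold change of 0.90 (SE 0.283, edgeR adjusted p = 0.145). The P301S Tia1+/- libraries held the 3 highest values of both genes among all 12 libraries. For Olfml3 this was by a very small margin, 15.471 CPM in replicate 1 against 15.463 in Tia1+/- replicate 3.

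Sall1 had the largest difference. It was at 10.1, 11.2 and 8.67 CPM in PS19 and at 45.03, 36.8 and 54.8 CPM in P301S Tia1+/-, a log2 fold change of 2.19 (SE 0.627, edgeR adjusted p = 0.127), and the groups were far apart. The adjusted p in a fit of these 6 libraries alone was 4.2e-05 for Sall1, 0.0284 for Fcrls and 0.0392 for Olfml3, and DESeq2 gave 0.0079, 0.0494 and 0.0234. Over all alternatives the adjusted p ranged from 4.2e-05 to 0.333 for Sall1, from 0.0284 to 0.984 for Fcrls and from 0.0234 to 0.433 for Olfml3. The same 6-library fit called 3025 genes, or 20.1% of those it tested, so a call there was common.

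Sall1 followed the olfactory bulb genes from library to library. The 4 libraries with the highest Sall1, WT replicate 1 and the 3 of P301S Tia1+/-, were the 4 with the highest summed bulb level, 666 to 1060 CPM. Tia1+/- replicate 3, with 24.0 CPM of Sall1, and WT replicate 2, with 14.3, came next in Sall1 and had bulb sums of 143 and 171 CPM. The 6 libraries left had bulb sums of 27.8 to 59.5 CPM and Sall1 between 8.41 and 11.2 CPM. The bulb sum did not order P2ry12 in this way, since P2ry12 was at 44.8 CPM with the lowest bulb sum and at 39.4 with the highest. With the mean log2 level of the bulb genes as a covariate, the log2 fold change of Sall1 between P301S Tia1+/- and PS19 turned to −1.24 and that of Fcrls to −0.02, while Olfml3 stayed above 0. The bulb sums of these groups do not overlap, so the covariate and the genotype cannot be told apart in this comparison. The same holds for PS19 with WT and for P301S Tia1+/- with Tia1+/-.

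**Figure D3:**
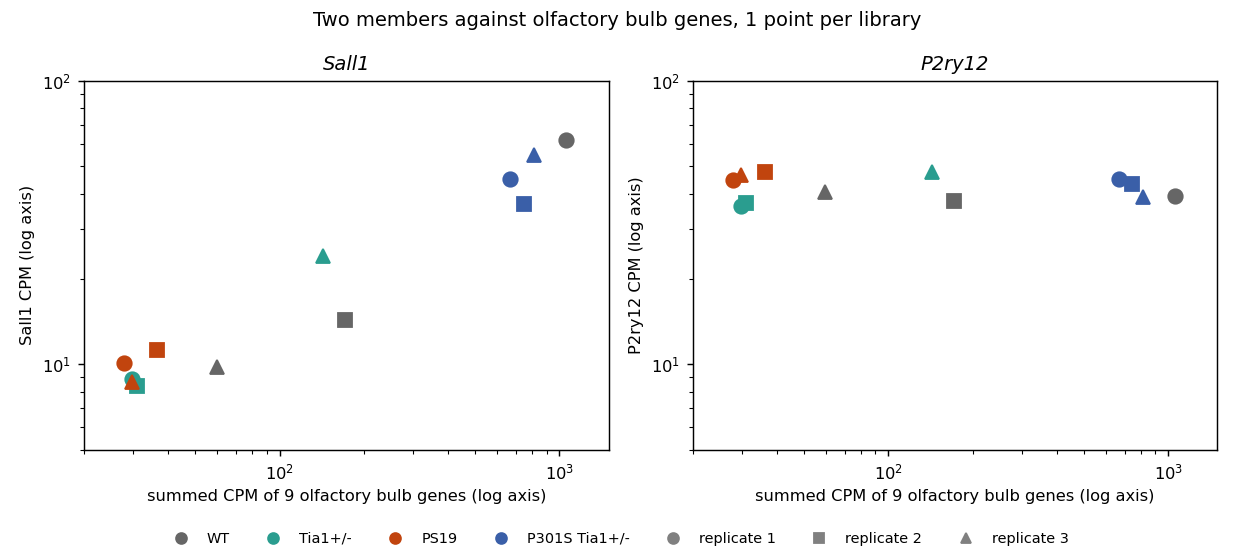
Sall1 (left) and P2ry12 (right) in CPM on log axes against the summed CPM of 9 olfactory bulb genes on a log axis, 1 point per library, coloured by genotype and shaped by replicate. Sall1 was between 8.41 and 11.2 CPM in the 6 libraries with the lowest bulb sums and between 36.8 and 62.1 CPM in the 4 with the highest, while P2ry12 stayed between 36.3 and 47.6 CPM across the whole range.

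Markers of macrophages outside the parenchyma also differed among the libraries. The list holds 15 genes of border macrophages, monocytes and lymphocytes, of which 10 passed the filter, and its sum was 34.1 to 71.1 CPM in P301S Tia1+/-, 27.6 to 40.8 in PS19, 22.0 to 41.8 in Tia1+/- and 22.4 to 57.5 in WT. The mannose receptor Mrc1 had 11.9 ± 4.21 CPM in P301S Tia1+/- and 7.57 ± 1.17 in PS19 (SD, n = 3), and Cd163 had 4.31 ± 1.19 and 2.56 ± 1.17. Cd3e of T cells had at most 1 count in any library. In P301S Tia1+/- with PS19, 8 of the 10 genes tested had positive log2 fold changes with a median of 0.47. There edgeR and DESeq2 called 0, with 1 at an unadjusted p under 0.05 from edgeR, beside 19.3% of all genes. In Tia1+/- with WT, 8 were negative with a median of −0.87, and 4 were lower without overlap, beside 10.4% of all genes. In P301S Tia1+/- with Tia1+/-, all 10 were positive with a median of 1.06, and 4 were higher without overlap, beside 14.9% of all genes. DESeq2 called Cbr2 there and for the interaction, among 403 and 1216 genes over all, and edgeR called 0. The part of these cells in the levels of Fcrls and Olfml3 was not tested.

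The 6 members that did not separate the tau groups by Tia1 label included the receptors. Cx3cr1 was at 44.7, 42.5 and 41.5 CPM in P301S Tia1+/-, above every WT library, with a log2 fold change of −0.38 against PS19 (SE 0.207, edgeR adjusted p = 0.34). Its PS19 replicate 3, at 43.8 CPM, lay below P301S Tia1+/- replicate 1, so these groups overlapped. Csf1r was at 71.7, 80.2 and 85.4 CPM in P301S Tia1+/- and P2ry12 at 45.1, 43.3 and 38.8 CPM, with log2 fold changes of −0.20 and −0.13 against PS19. P2ry13, Tmem119 and Siglech had log2 fold changes of −0.22, 0.07 and 0.05 there, each within 1 SE of 0.

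Relative to other microglial transcripts, the set stood higher in every P301S Tia1+/- library than in every PS19 library. The mean log2 CPM of the 9 members minus that of the 30 other microglia-enriched genes was 0.91 to 1.06 in P301S Tia1+/- and 0.30 to 0.48 in PS19, with 0.60 to 0.74 in Tia1+/- and 0.49 to 0.93 in WT, where replicate 1 lay inside the range of P301S Tia1+/-. Without Sall1 the difference was 0.85 to 0.97 in P301S Tia1+/- and 0.47 to 0.60 in PS19. Without Sall1, Fcrls and Olfml3, the other 6 members gave 0.95 to 1.15 in P301S Tia1+/- and 0.77 to 1.05 in PS19, and the groups overlapped. The groups stood apart where these 3 genes were included, and the 3 were picked out after their values were seen.

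**Figure D4:**
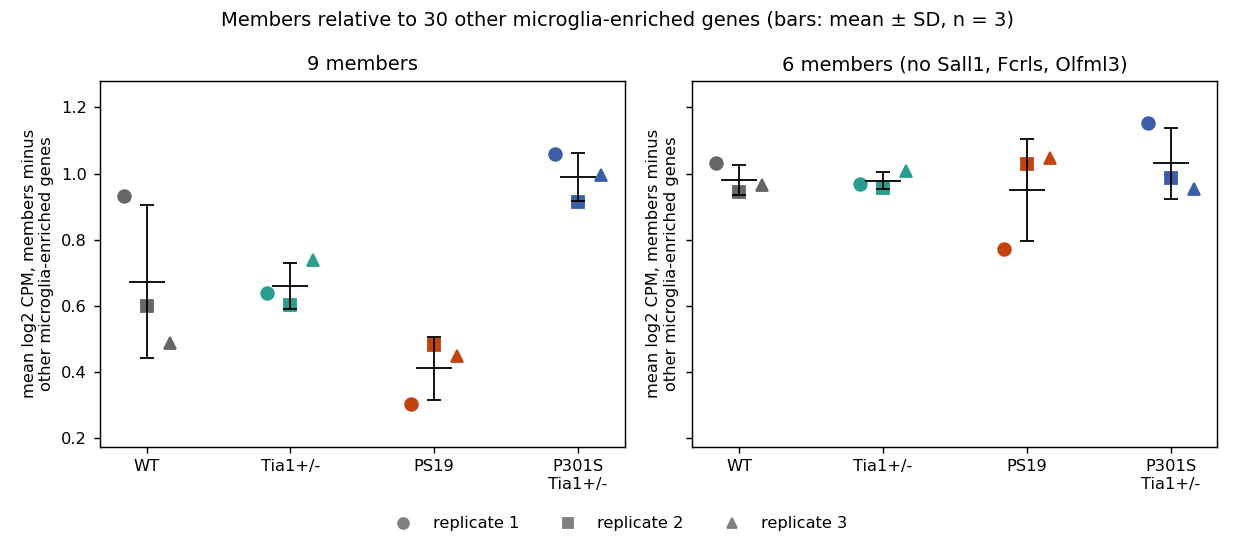
Mean log2 CPM of the members minus that of 30 other microglia-enriched genes (y axes) by genotype group (x axes), for all 9 members (left) and for 6 without Sall1, Fcrls and Olfml3 (right); points are libraries and bars are the mean ± SD of 3. On the left P301S Tia1+/- lies at 0.91 to 1.06 and PS19 at 0.30 to 0.48, and on the right the groups overlap.

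Tia1+/- was compared with WT to see the same genes without the transgene. Fcrls, Siglech and Olfml3 were higher in all 3 Tia1+/- libraries than in all WT libraries, beside 9.6% of all genes higher without overlap and 10.4% lower. Fcrls was at 14.1, 15.4 and 18.1 CPM in Tia1+/-, a log2 fold change of 0.84 over WT (SE 0.29, edgeR adjusted p = 0.155). Siglech was at 10.6, 13.7 and 14.1 CPM and Olfml3 at 12.1, 12.02 and 15.5 CPM, with log2 fold changes of 0.36 and 0.41. These steps were small, and edgeR called 0 of the members and 0.712% of all genes. Only Fcrls had an unadjusted p under 0.05, and DESeq2 called 0 members. The median log2 fold change was 0.26 for the members and 0.01 for all genes. Without WT replicate 3, 5 members were higher without overlap, beside 15.5% of all genes. The 8 oligodendrocyte markers were all higher without overlap too, with a median log2 fold change of 0.84. Their sums were 3239 to 4235 CPM in Tia1+/- against 1801 to 2721 in WT. edgeR called 1 of them, and DESeq2 called 6, among 972 genes over all. The part of these markers in the members' levels was not tested.

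Tia1+/- replicate 3, the library with high striatal genes, was the highest of its group in all 9 members. P2ry12 was at 36.3 and 37.1 CPM in the first replicates and at 47.6 in the third, Cx3cr1 at 33.0, 35.2 and 58.7 CPM, and Csf1r at 67.6, 71.3 and 93.4 CPM. Tmem119 was at 17.1, 16.4 and 25.3 CPM and P2ry13 at 10.1, 9.99 and 14.4 CPM. Without this library, the log2 fold change of Cx3cr1 against WT went from 0.22 to −0.09 and that of P2ry12 from 0.04 to −0.09, and the median of the 9 members was 0.11. The part of striatal tissue in these levels was not tested.

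P301S Tia1+/- compared with Tia1+/- asks about the transgene on the background of 1 Tia1 copy, and both groups had high Xist. All 9 members had positive log2 fold changes, with a median of 0.14 and 0.01 over all genes. Sall1, at 8.90, 8.41 and 24.0 CPM in Tia1+/-, had a log2 fold change of 1.72 (SE 0.614, edgeR adjusted p = 0.246), Olfml3 one of 0.51 and Fcrls one of 0.47. These 3 genes were higher without overlap, beside 14.9% of all genes higher and 11.1% lower. For Olfml3 the groups nearly touched, at 15.471 CPM in P301S Tia1+/- replicate 1 and 15.463 in Tia1+/- replicate 3. edgeR called 0 members and 0% of all genes, Sall1 alone had an unadjusted p under 0.05, and DESeq2 called 0 members. Without Tia1+/- replicate 3, 8 of the 9 members were higher without overlap, beside 28.2% of all genes, and the median of the members was 0.33. The 4 receptors had log2 fold changes of 0.01 to 0.07, smaller than those in PS19 with WT, and the test of that difference is the interaction.

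The interaction is the effect of the Tia1+/- label in tau mice minus its effect in mice without the transgene. It was negative for 5 members and positive for 4, with a median of −0.17 and 0.00489 over all genes. Cx3cr1 had −0.60 (SE 0.295, edgeR adjusted p = 0.252), P2ry13 had −0.64 (SE 0.332, edgeR adjusted p = 0.271) and Csf1r had −0.47 (SE 0.216, edgeR adjusted p = 0.227), so the receptors' lower values in P301S Tia1+/- than in PS19 did not differ from their course without tau past the threshold. Sall1 had 3.25 (SE 0.874, edgeR adjusted p = 0.0827), and its unadjusted p was the only one under 0.05. edgeR called 0 members and 0.00648% of all genes, which is 1 gene. DESeq2 called Sall1 among 1216 genes over all (3.23, adjusted p = 0.0037, with a range of 0.0037 to 0.187 over all alternatives). Sall1 was also called without WT replicate 3 (3.62, adjusted p = 0.0308) and without Tia1+/- replicate 3 (3.91, adjusted p = 0.0473), and it turned to −2.32 with the bulb covariate.

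Across the 12 libraries, the members other than Sall1 varied together. Sall1 was left out of this description because its libraries fell into separate ranges. Among the 28 pairs of the other 8 genes, Pearson's r of log2 CPM ran from −0.11 to 0.902 with a median of 0.664. By a permutation test with Benjamini-Hochberg adjustment over all 36 pairs of members, 14 of the 28 had an adjusted p under 0.05 for r and 12 for Spearman's rho. The libraries differ in genotype and in tissue content, which these pairs share. After the group means were taken out, the median r of the 28 pairs was 0.639, so the pairs also varied together within groups.

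The tightest pair was Cx3cr1 with Csf1r, with r = 0.902 (permutation p = 5e-05, adjusted p = 0.00126) and rho = 0.867 (permutation p = 0.00043, adjusted p = 0.0031). Without the 2 libraries farthest from the median of Cx3cr1, r was 0.799. P2ry13 with Cx3cr1, the first pair of promoters shown above, had r = 0.857 (permutation p = 7e-05, adjusted p = 0.00126) and rho = 0.895 (permutation p = 0.00014, adjusted p = 0.00225), and 0.814 without the 2 farthest libraries. Fcrls with Olfml3, the other pair shown, had r = 0.862 (permutation p = 0.00025, adjusted p = 0.00225) and rho = 0.895 (permutation p = 0.00021, adjusted p = 0.00225), and r was 0.978 without the 2 farthest. The lowest of the 28 was P2ry12 with Olfml3, with r = −0.11 (permutation p = 0.742, adjusted p = 0.862) and rho = −0.12 (permutation p = 0.717, adjusted p = 0.782). The other pairs of P2ry12, P2ry13, Tmem119, Cx3cr1 or Csf1r with Fcrls or Olfml3 had r from 0.0578 for P2ry12 with Fcrls to 0.553 for Tmem119 with Fcrls, and with the group means taken out Csf1r with Olfml3 reached 0.846. Siglech had r = 0.739 with Fcrls (permutation p = 0.00774, adjusted p = 0.0284) and rho = 0.769 (permutation p = 0.00511, adjusted p = 0.0184), 0.829 without the 2 farthest.

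**Figure D5:**
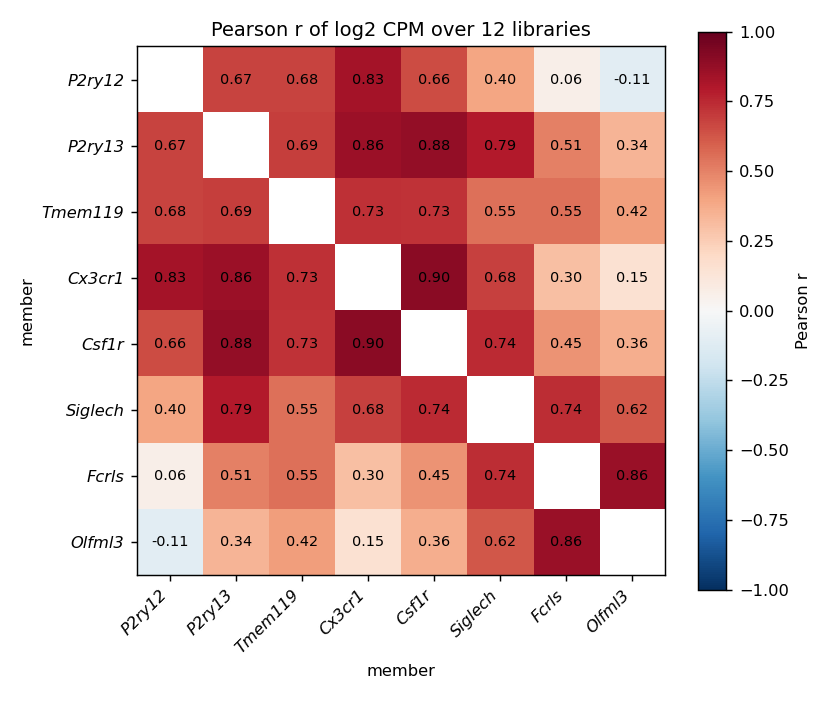
Pearson's r of log2 CPM over the 12 libraries for each pair of 8 members (both axes), with Sall1 left out. The highest r is 0.902 for Cx3cr1 with Csf1r, Fcrls and Olfml3 have 0.862, and the lowest is −0.11 for P2ry12 with Olfml3.

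The genes outside the set whose level over the 12 libraries was most like the mean standardised level of the 9 members were Cyth4 (Pearson's r = 0.955), Pld4 (0.936), Unc93b1 (0.935), Cst3 (0.916), Xkr8 (0.912), Lzts1 (0.910), D430019H16Rik (0.906) and Abcb10 (0.899), out of 15431 genes. Against the 8 members without Sall1 they were Pld4 (0.944), Unc93b1 (0.936), Cyth4 (0.929), Tbxas1 (0.918), Ly86 (0.911), Itgam (0.907), 4632428N05Rik (0.902) and Scml4 (0.902). Ranking over so many genes picks high values, and these r are given as a description. Cyth4, Ly86, Itgam and 4632428N05Rik, an older name of Vsir, also stand on the list of other microglia-enriched genes. Mean Cyth4 CPM was 7.97 for WT, 8.69 for Tia1+/-, 10.7 for PS19 and 11.3 for P301S Tia1+/-.

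The ligands and signalling partners of the receptors were counted from lists. Of the 8 genes of the CSF1 receptor axis, edgeR and DESeq2 called 0 in any comparison. From edgeR, 1 to 5 had an unadjusted p under 0.05, beside 15.6% to 22.9% of all genes. Csf1, a ligand of CSF1R, had a log2 fold change of 0.53 in PS19 over WT (SE 0.176, edgeR adjusted p = 0.208) and the phosphatase gene Inpp5d, which restrains signalling in myeloid cells, had 0.56 (SE 0.181, edgeR adjusted p = 0.197), and both were higher in every PS19 than in every WT library. The median of the 8 was 0.55 there, with 5 at an unadjusted p under 0.05, beside 16.3% of all genes. For P301S Tia1+/- with PS19 the median was −0.33, with 1 at such a p, beside 19.3%. Il34, the neuronal ligand of CSF1R, had 0.32 in Tia1+/- over WT (SE 0.144, edgeR adjusted p = 0.26).

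The fractalkine axis was counted in the same way. Cx3cl1, the membrane-bound chemokine that neurons display to CX3CR1, had log2 fold changes of −0.05 in PS19 over WT and −0.16 in P301S Tia1+/- over PS19, and its sheddases Adam10 and Adam17 had 0.16 and −0.32 in the former and −0.20 and 0.13 in the latter. edgeR and DESeq2 called 0 of these 3 genes in any comparison. From edgeR, 0 or 1 had an unadjusted p under 0.05, beside 15.6% to 22.9% of all genes. Among 9 purinergic partners, both tools called 0 in any comparison, with 0 to 3 at an unadjusted p under 0.05, beside the same shares. Entpd1, the ectonucleotidase that breaks down ATP and ADP, had −0.50 in PS19 over WT (SE 0.189, edgeR adjusted p = 0.24) and 0.50 in P301S Tia1+/- over PS19 (SE 0.188, edgeR adjusted p = 0.193), without overlap in both. Kcnk13, a potassium channel that microglia need to survey their surroundings, had 0.92 in the latter (SE 0.333, edgeR adjusted p = 0.184).

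Of the 11 genes of the transforming growth factor beta axis, edgeR called 0 in any comparison. It gave 1 to 4 an unadjusted p under 0.05, beside 15.6% to 22.9% of all genes. DESeq2 called 2 in PS19 with WT, Nrros and Itgav, an integrin subunit that activates TGF-beta, with Nrros higher and Itgav lower, and Smad3, lower, in P301S Tia1+/- with PS19. It also called Nrros, higher, and Smad3, lower, in Tia1+/- with WT, Smad3, lower, in P301S Tia1+/- with Tia1+/-, and Itgav, positive, for the interaction. Over all genes DESeq2 called 431, 821, 972, 403 and 1216 in these comparisons, in the order named. Nrros, which anchors latent TGF-beta on microglia, stood at 5.05 ± 1.02 CPM among WT libraries and at 8.14 ± 0.951 among Tia1+/-, 8.29 ± 0.686 among PS19 and 8.33 ± 0.873 among P301S Tia1+/- libraries (SD, n = 3). Its log2 fold changes were 0.71 in PS19 over WT (SE 0.173, edgeR adjusted p = 0.159) and 0.69 in Tia1+/- over WT (SE 0.173, edgeR adjusted p = 0.0821), and WT overlapped with neither. Smad3, a transducer of the pathway in many brain cells, had −0.50 in P301S Tia1+/- with PS19 (SE 0.1, edgeR adjusted p = 0.0691).

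In the 30 other microglia-enriched genes, the median log2 fold change was 0.46 in PS19 over WT, close to the 0.41 of the members. Of these, 29 were positive, beside 49.0% of all genes, and 17 had an unadjusted p under 0.05, beside 16.3%. Higher without overlap were 11, beside 9.75% of all genes. edgeR called 0, and DESeq2 called 2, among them Ly86, where it called 431 genes over all. C1qb, a chain of complement C1q, had 0.92 (SE 0.298, edgeR adjusted p = 0.199). In P301S Tia1+/- with PS19, 24 of the 30 were negative with a median of −0.21, where 51.5% of all genes were positive. An unadjusted p under 0.05 was given for 6, beside 19.3% of all genes, and both tools called 0. The engulfment receptor gene Mertk had −0.48 (SE 0.17, edgeR adjusted p = 0.177). The disease-associated list of 22 genes had medians of 0.38 and −0.22 in these comparisons, with 0 called by edgeR. Of its genes, 8 and 6 had an unadjusted p under 0.05, beside 16.3% and 19.3% of all genes. DESeq2 called 2 and 3 of them, among 431 and 821 genes over all. Itgax and Clec7a, both markers of that state, had 7 to 279 and 8 to 228 counts in the PS19 libraries, against at most 10 and 9 in WT, and the top count of each is PS19 replicate 1.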

How the data were processed

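Total RNA from the cortex of 12 mice, 3 in each of 4 genotype groups, was sequenced in read pairs from stranded libraries. Alignment by the authors was to mm10 and used Bowtie with TopHat (TopHat2 2.0.6 in the submitters' processing notes), and they deposited raw counts per gene symbol from featureCounts, without normalization; the annotation, the strand setting and the treatment of reads with several alignments are not given in the sources used here. Replicates are separate mice. Each library's total lay between 11978962 and 19146484 counts.

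The counts were normalized with TMM and tested by quasi-likelihood in edgeR 4.0.16, run under R 4.3.3. One fit took all 12 libraries with a mean per group, after filterByExpr, and p values were adjusted over the 15440 genes tested by the Benjamini-Hochberg method with a threshold of 0.05. CPM are counts per 1 M on the TMM scale, and log2 CPM used a prior count of 2. Values per kb used exon lengths of GENCODE M21 on GRCm38. Correlations were tested with 1e+05 resamples in SciPy 1.17.1. The script was tested on simulated counts. Beside DESeq2 1.42.0, the alternatives were its size factors in edgeR, no filter, the 6 libraries compared alone, the replicate number as a block, the olfactory bulb genes as a covariate, and each library left out; groups without overlap were recounted with each library left out after the data had been seen. The members and all gene lists were chosen with earlier results of these data known. Named genes are the members, Med12l, Tia1, the sex-linked genes, from each list the genes called or up to 3 with the smallest p in a comparison, and the 8 genes most like the members. Other genes named (Cd163, Mrc1 and Cd3e, defining markers of their lists, with Mapt, Prnp, S100a8 and S100a9) were picked after a look at their values. In the lists, Adgrg1, Vsir, Arhgap45 and Drd1 were matched through older symbols. SDs and standard errors cover the spread between mice and counting error only. Some list genes that this rule picks are not reported here.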

Additional observations from a re-analysis of the deposited data

How the results depend on the processing

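Each member's log2 fold change in each comparison was refitted under the alternatives. Of these refitted values, 517 kept the direction and the side of the threshold. Another 57 turned in sign, and 11 passed the threshold without a turn. Many fold changes turned or passed the threshold under some alternative, and these exceptions follow. Where a setting turned a value, the cause was not tested. DESeq2 called 3 members for P301S Tia1+/- with PS19 and 1 for the interaction, and the fit of the 6 libraries alone called 3 members for P301S Tia1+/- with PS19. Over all genes, the edgeR calls numbered 0 (PS19 with WT), 37 (P301S Tia1+/- compared with PS19), 110 (Tia1+/- compared with WT), 0 (P301S Tia1+/- compared with Tia1+/-) and 1 (the interaction), DESeq2 called 431, 821, 972, 403 and 1216, and the 6 libraries alone called 0, 3025, 6 and 334 for the first 4. Without the filter the counts were 0, 32, 73, 0 and 5. Values near 0 turned in sign for P2ry13 in P301S Tia1+/- with Tia1+/- (−0.00132 with DESeq2's size factors, −0.00106 with DESeq2) and for the interaction of Tmem119 (−0.00597 with each of these, −0.00954 without the filter).

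With the bulb covariate, 1052, 1281, 1560, 1381 and 1468 genes were called over all genes. Under it 2 members were called for PS19 with WT (Cx3cr1 and Sall1), 2 for Tia1+/- with WT (Fcrls and Sall1) and 1 for the interaction (Sall1), and the members' medians were 0.77, −0.49, 0.52, −0.21 and −1.01. For PS19 with WT it gave Sall1 1.33 and Olfml3 0.15. For P301S Tia1+/- with PS19 it gave Tmem119 −0.60, Sall1 −1.24, Siglech −0.0949 and Fcrls −0.0208. For Tia1+/- with WT it gave Sall1 1.08. For P301S Tia1+/- with Tia1+/- it gave P2ry12 −0.13, P2ry13 −0.21, Tmem119 −0.25, Cx3cr1 −0.55, Csf1r −0.20, Sall1 −0.99 and Fcrls −0.29. For the interaction it gave Tmem119 −1.01, Sall1 −2.32 and Fcrls −1.39.

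With 1 library left out, the number of members called for the interaction was 0 to 1, and edgeR called 0 members in every other comparison. Ranges that cross 0 were, for P301S Tia1+/- with Tia1+/-, −0.0815 to 0.18 for Csf1r, −0.15 to 0.33 for Cx3cr1, −0.0196 to 0.20 for P2ry12, −0.11 to 0.20 for P2ry13 and −0.00108 to 0.22 for Siglech. For Tia1+/- with WT they were −0.0851 to 0.38 for Cx3cr1, −0.0918 to 0.11 for P2ry12, −1.73 to 0.22 for Sall1 and −0.15 to 0.21 for Tmem119. For PS19 with WT Olfml3 ranged from −0.38 to 0.24, for P301S Tia1+/- with PS19 Siglech ranged from −0.14 to 0.24, and for the interaction Fcrls ranged from −0.29 to 0.42 and Tmem119 from −0.14 to 0.22. Over all genes, the calls ranged from 6 to 12 for P301S Tia1+/- with PS19, from 8 to 497 for Tia1+/- with WT and from 0 to 1035 for the interaction. Members higher without overlap numbered 6 to 7, 3 in each case, 3 to 5 and 3 to 8 for the first 4 comparisons. Members were lower without overlap for PS19 with WT without WT replicate 3 (1, beside 20.3% of all genes) or PS19 replicate 1 (1, 15.5%), for P301S Tia1+/- with PS19 without PS19 replicate 1 (1, 23.6%), PS19 replicate 3 (2, 22.9%) or P301S Tia1+/- replicate 1 (2, 23.02%), and for Tia1+/- with WT without Tia1+/- replicate 3 (2, 19.8%).

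The shared replicate numbers do not pair the samples, since 7 of 18 same-numbered pairs of libraries had a correlation of residuals above 0.1 (median −0.06, −0.54 to 0.35). With the replicate block edgeR called 0, 7, 9, 0 and 0 genes over all genes and 0 members, and the members' medians were 0.40, 0.06, 0.26, 0.13 and −0.16. With the group means taken out, 15 pairs of members had an adjusted p under 0.05 in place of 14. That permutation test moved the residuals freely among all 12 libraries, although they sum to 0 within each group. Its p values can be too small, and the 15 is given as a description only. Depth limits Fcrls, Olfml3, P2ry13 and Siglech most, with as few as 85, 106, 76 and 118 counts in a library.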
